A study of Homo sapiens with 2 samples.

Results

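TEAD1 and CCN1 were the Hippo pathway genes of this set whose RNA carried SF3B1 HITS-CLIP intervals. The set held 9 genes of the TEAD, YAP and CCN arm of the pathway: the transcription factor genes TEAD1, TEAD3 and TEAD4, the coactivator genes YAP1 and WWTR1, the kinase genes LATS1 and LATS2, and the target genes CCN1 and CCN2. They were chosen from this same peak list, with its intervals known, and a gene held an interval where the list named its NCBI gene number and the interval's midpoint lay in its RefSeq span. By this rule, 5 of the 1406 distinct intervals belonged to 2 of the 9 genes, and the other 7 genes held 0. All 9 are protein-coding, and the RefSeq table held 19987 such genes on the autosomes, chromosome X and the mitochondrial genome. Of those 19987 genes, 5.29% held an interval.

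HITS-CLIP was the assay. In it, ultraviolet light crosslinks RNA to protein, an antibody recovers the protein, and the bound RNA is sequenced as short tags. The cells were MDA-231-LM2, a lung-metastatic derivative of the triple-negative breast cancer line MDA-MB-231, untreated as far as the labels state, with 2 biological replicates in 1 group. The title and the antibody label name SF3B1, a subunit of the U2 small nuclear ribonucleoprotein that recognises the branch point of introns, whereas the extraction text names SNRBP2, and this difference was not resolved. There was no input, control antibody or second condition, and the deposited list pooled both replicates, so no value has a replicate error and no test between conditions could be made. Of 8 genes fixed as markers of mesenchymal breast cancer lines, 4 held an interval (VIM, AXL, ANXA1 and LDHB), of 7 luminal markers CDH1 alone did, with 3 tags, and of 3 fibroblast and 2 blood markers 0 did, where 5.29% of all protein-coding genes held an interval. At that share, lists this short would hold few or none, so the low counts do not show that those cell types were absent. CD44, CAV1, SPARC and MSN were the mesenchymal markers with no interval, and the list gives no transcript levels.

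In the Hippo pathway, the kinases MST1 and MST2 activate LATS1 and LATS2, which phosphorylate YAP and TAZ (the product of WWTR1) and keep them out of the nucleus. When this phosphorylation is low, YAP and TAZ enter the nucleus and bind TEAD proteins, which carry the DNA-binding domain, and genes such as CCN1 and CCN2 are transcribed. In breast cancer cells the pathway is known for its links to invasion and metastasis.

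TEAD1, which encodes one of the DNA-binding partners of YAP and TAZ, held 4 intervals on the plus strand of chromosome 11 (hg38, as for all positions). The gene spans 270317 nt, from 12674421 to 12944737. The first interval, at 12715000 to 12715040, was 6 tags high, where height is the number of pooled tags at the top of the peak (exact Poisson 95% interval 2.2 to 13.1). The second, at 12864784 to 12864830, reached 25 tags (16.2 to 36.9). The third was 11 tags high at 12876521 to 12876562 (5.49 to 19.7), and the last was 12 tags high at 12879654 to 12879696 (6.2 to 21.0). These Poisson intervals cover counting error only, and that of the tallest peak overlapped those of the third and the last but not that of the first. The tallest peak was 2.08 times the next and held 46.3% of the 54 tags summed over the 4 heights. Widths were 41, 47, 42 and 43 nt, against a median of 43 nt over the whole list.

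The TEAD1 intervals were unevenly spread along the gene. The first lay 40.6 kb from the gene start, at 15.0% of the span, and 149787 nt separated its midpoint from the next. The other 3 lay within 14868 nt of each other, or 5.5% of the span, at 70.4%, 74.8% and 75.9% of the way along the gene. The gaps between their midpoints were 11734 and 3134 nt. None of the 4 midpoints lay inside another RefSeq gene, so no nested noncoding RNA was annotated under them. The gene table holds spans without exons and no genome sequence was used, so whether these positions were exonic, intronic or at splice sites was not analysed here.

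**Figure D1:**
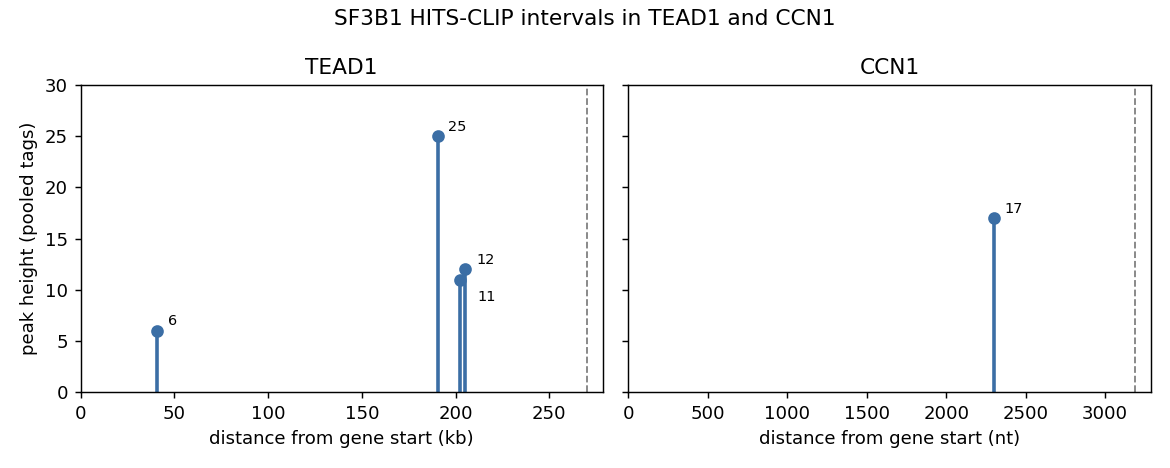
Peak height in pooled tags (vertical axis) against the distance of the interval's midpoint from the gene start, in kb for TEAD1 (left) and in nt for CCN1 (right); each stem is 1 interval with its height, and the dashed line is the gene end. In TEAD1, peaks of 25, 11 and 12 tags lie close together at 70.4% to 75.9% of the span. Its peak of 6 tags lies at 15.0% of the span, 40.6 kb from the gene start. In CCN1 the single peak of 17 tags lies at 72.1% of the span.

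CCN1, also called CYR61, encodes a secreted matrix-associated protein and is a widely used readout of YAP and TAZ activity. It held 1 interval, of 17 tags (exact Poisson 95% interval 9.9 to 27.2), at 85583041 to 85583083 on the plus strand of chromosome 1. The gene spans 3190 nt, from 85580761 to 85583950, and the interval's midpoint lay 2301 nt from its start and 888 nt from its end. As with TEAD1, no other RefSeq gene held the midpoint. Across both genes, 4 of the 5 intervals lay beyond 50% of the span, a split chosen after the positions were seen, against 66.9% of the 1316 pairs of an interval and its protein-coding gene.

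The deposited list gives, beside each height, the height expected for the gene, and this differed widely between TEAD1 and CCN1. It was 0.03 tags for TEAD1 and 2.59 tags for CCN1, which is 86.3 times as high by the printed values. The span of TEAD1 was 84.7 times that of CCN1, and whether length accounts for the difference in expected height was not tested. An expected height of 0.03 was listed for 135 protein-coding genes, with spans of 7420 to 423526 nt. The expected height is given to the second decimal, so ratios to it are coarse for TEAD1. The tallest TEAD1 peak was 833 times its expected height (714 to 1000 within that rounding), and the 6-tag peak was 200 times (171 to 240). The CCN1 peak, although higher than 3 of the 4 TEAD1 peaks, was 6.56 times its expected height. The p-values that the authors' peak list gives ran the same way: 0.0315 for CCN1 and 0.000724 for the lowest TEAD1 peak, with the other 3 at 1e-100, the lowest value printed in the list and shared by 269 of its distinct intervals. No p-value in the list exceeded 0.0499.

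The expected height of CCN1 was the highest of any protein-coding gene with an interval, ahead of 1.98 for RPL10A, a ribosomal protein gene, and of a median of 0.04 over protein-coding intervals. The list held 23 intervals with an expected height of at least 2.59 in all classes of RNA, and the lowest of them was the 17-tag peak of CCN1 itself. Among the 170 intervals that shared the 0.03 of TEAD1, heights began at 5 tags. Among protein-coding intervals CCN1 was the only 1 at that level, and the list holds significant peaks only, so these lowest heights are set in part by its filter.

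The members TEAD3, TEAD4, YAP1, WWTR1, LATS1, LATS2 and CCN2, 7 in all, had no row in the list and no interval of any listed gene inside their spans. TEAD3, a paralogue of TEAD1 on chromosome 6 (35473597 to 35497079), lay 4247 nt from an interval of 31 tags that belonged to RPL10A. TEAD4, the other paralogue in the set, spans 81280 nt on chromosome 12, and the closest interval was 94876 nt away. YAP1 on chromosome 11 (122978 nt) and WWTR1 on chromosome 3 (207554 nt), which encode the coactivators, were long genes with no interval. WWTR1 had none closer than 10503690 nt. The spans of LATS1 and LATS2, which encode the kinases that phosphorylate YAP and TAZ, were 59949 and 88551 nt. CCN2, also called CTGF, a matrix protein gene on chromosome 6 (131948176 to 131951372), spans 3197 nt, close to the 3190 nt of CCN1, and held 0 intervals where CCN1 held 1. An expected height is listed only for genes with a row, so it was not known for these 7 genes. Holding no interval was the usual state, since only 5.29% of protein-coding genes held one. The share was 8.98% of those over 100 kb and 2.66% of those under 20 kb. The list contains significant peaks only, so the lack of an interval does not show that tags were absent.

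Against the list as a whole, the TEAD1 and CCN1 peaks were tall and TEAD1 held many intervals; this is a description, since the genes were chosen from it. The 5 member intervals had a median height of 12 tags, against 7 tags over 1306 distinct intervals of protein-coding genes, whose upper quartile was 10. A height of 25 tags or more was reached by 51 of these 1306 (3.91%), and one of 17 or more by 122 (9.34%). The 6-tag peak of TEAD1 lay at the low end, with 78.2% of protein-coding intervals as high or higher. By tallest peak, TEAD1 ranked 42 and CCN1 ranked 96 among the 1057 protein-coding genes with an interval, and by summed height TEAD1 ranked 20. Genes of over 100 kb with a peak of at least 25 tags numbered 6, TEAD1 among them.

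At least 4 intervals were held by 12 of 19987 protein-coding genes (0.06%), TEAD1 among them, whereas 871 of the 1057 genes with an interval held 1. The genes most like TEAD1, taken as those with the same number of intervals and the nearest summed height in the 1 pooled list, were DNMT1, PKM and RPL10. DNMT1, the maintenance DNA methyltransferase gene, had a summed height of 58 tags and a tallest peak of 34. PKM, the pyruvate kinase gene, had a sum of 50 tags and a tallest peak of 19, and RPL10, a ribosomal protein gene, a sum of 41 and a tallest peak of 13. All 3 have shorter spans than the 270317 nt of TEAD1, at 61608, 32563 and 4275 nt. DIP2C (415468 nt) and DST (496835 nt) also held 4 intervals and have longer spans. Their summed heights were 72 and 32 tags, and their tallest peaks 48 and 9. Of the 49 genes with 3 or more intervals, 23 held 3 within 14868 nt, the distance of the TEAD1 group. That count includes TEAD1 itself and genes, such as RPL10, whose whole span is shorter than this distance. Of these 49 genes, 18 are over 100 kb long, and the narrowest stretch with 3 intervals was 7194 nt in NAV2, a neuron navigator gene, 14868 nt in TEAD1, 14939 nt in MPRIP and 16466 nt in DST, a plakin gene. The group in TEAD1 was thus about as narrow as those in MPRIP and DST.

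Of the 9 members 2 held an interval, against 5.29% of all protein-coding genes, a count that the choice of members sets in part and that is read no further. By role, 1 of the 4 TEAD genes held an interval (TEAD2, not in the set, held 0), as did 1 of the 6 CCN family genes, 0 of YAP1 and WWTR1, and 0 of LATS1 and LATS2. The share of genes with an interval differed with length in the whole list. It was 8.98% of 3351 protein-coding genes over 100 kb, 4.54% of 16636 genes up to that length and 2.66% of 8996 genes under 20 kb. TEAD1, YAP1 and WWTR1 fall in the longest class and CCN1 and CCN2 in the shortest.

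Where other genes of the pathway held an interval, it was single, as in 871 of the 1057 protein-coding genes with an interval. Of 70 further pathway genes, 8 held 1 interval each (11.4%, exact Clopper-Pearson 95% interval 5.07 to 21.3), against the 5.29% of protein-coding genes. Their heights were 4 to 8 tags with a median of 6, close to the median of 7 tags over protein-coding intervals. All 8 peaks were lower than 4 of the 5 peaks of TEAD1 and CCN1. This is a description only, since TEAD1 and CCN1 were chosen with their peaks known. AMOTL2 and PTPN14 also belong to the signature of YAP and TAZ target genes given below. Without this overlap, 6 of 68 genes held an interval (8.82%, 3.31 to 18.2). In the lists that follow, members of the set are counted too. In the core kinase list, MOB1B, an activator of LATS kinases, held a peak of 6 tags, and it was the only 1 of 9 genes with one. Among the 39 upstream regulators, 5 held a peak: FAT1, an atypical cadherin (7 tags), YWHAZ and YWHAQ, 14-3-3 proteins that retain phosphorylated YAP in the cytoplasm (7 and 6), MAP4K4, a kinase that acts on LATS (5), and WWC3, a scaffold protein (4). Of 13 genes of YAP, TAZ and their cofactors, AMOTL2, an angiomotin that binds YAP (8 tags), and PTPN14, a YAP-binding phosphatase (5 tags), held a peak. STRIPAK, the phosphatase complex that opposes the MST kinases, had 0 of 12 genes with an interval. AMOTL2 alone of the 70 genes had a peak above the list's median height of 7 tags (1.43%), against 2.43% of protein-coding genes.

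**Figure D2:**
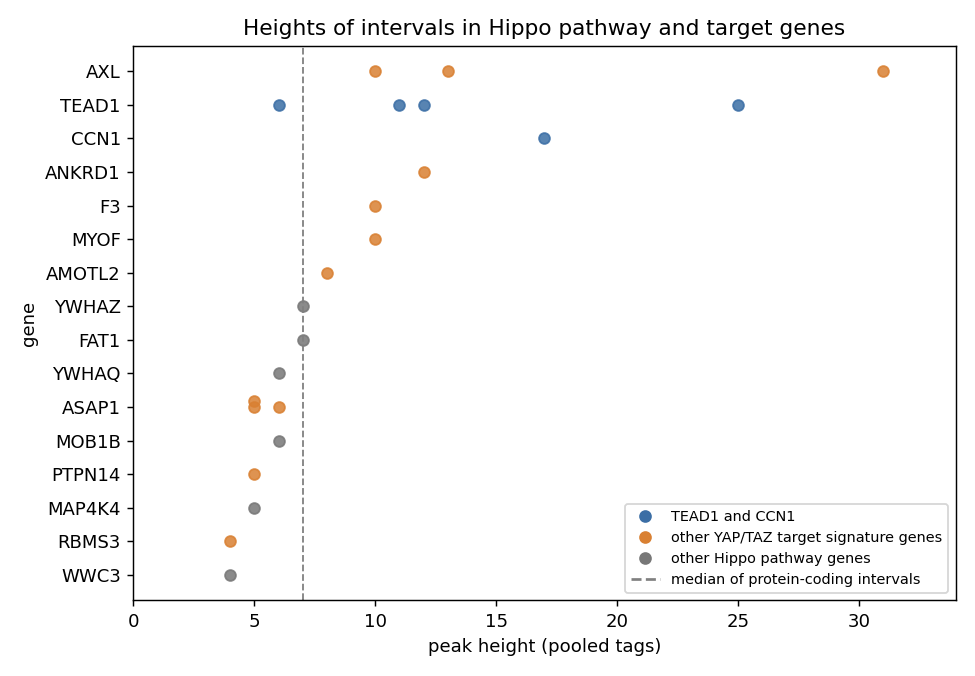
Height of every interval in pooled tags (horizontal axis) for each gene of the pathway and target lists that held one (vertical axis, ordered by tallest peak); each point is 1 interval, equal heights in a gene are drawn slightly apart, and the dashed line is the median of 7 tags over protein-coding intervals. AXL, with 31 tags, TEAD1, with 25, and CCN1, with 17, have the tallest peaks, and the genes drawn in grey reach 7 tags at most.

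Several target genes of YAP and TAZ besides CCN1 held intervals, and the difference between this share and that of the pathway's other components was not tested. In a signature of 22 YAP and TAZ target genes from the field, which includes CCN1, CCN2 and LATS2, 9 held an interval (40.9%, exact Clopper-Pearson 95% interval 20.7 to 63.6), against 5.29% of protein-coding genes. Without these 3 members the count was 8 of 19 (42.1%, 20.3 to 66.5), with 12 intervals of 4 to 31 tags and a median of 9 tags. The binomial limits allow for counting alone and take each gene as a separate draw. The signature and the pathway lists were chosen with earlier results of these data known, so their shares are a description only. AXL, a receptor tyrosine kinase gene linked to invasion, held 3 intervals on the plus strand of chromosome 19: 10 tags at 41221843 to 41221885, 13 tags at 41239117 to 41239161 and 31 tags at 41253322 to 41253377. This tallest AXL peak was higher than any peak of TEAD1 or CCN1 and was 91.2 times the height expected for the gene. AXL is also among the mesenchymal markers counted above, and it held 3 of the 12 signature intervals outside the set.

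The remaining target genes had lower peaks than CCN1. ANKRD1, an ankyrin repeat protein gene and a standard YAP target, held 12 tags at 90919005 to 90919045 on chromosome 10 (minus strand). F3, which encodes tissue factor, the initiator of coagulation, held 10 tags at 94532619 to 94532661 on chromosome 1 (minus strand). MYOF, the myoferlin gene of membrane repair, held 10 tags at 93324141 to 93324183 on chromosome 10 (minus strand). AMOTL2 and PTPN14, counted above, also belong to the signature. ASAP1, an Arf GTPase-activating protein gene, with 3 peaks of 5 or 6 tags, and RBMS3, an RNA-binding protein gene, with 1 of 4 tags, complete the 9 and were named after their values were seen. Expected heights of these intervals outside the set were 0 to 0.45 tags, all below the 2.59 of CCN1.

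Since the share of genes with an interval differed with length, the counts were also taken by length. Of the target genes outside the set, 4 of 6 over 100 kb held an interval, against 8.98% of protein-coding genes of that length, and 4 of 13 of up to 100 kb did, against 4.54%. The same split of the 70 further pathway genes gave 4 of 26 over 100 kb (4.36% to 34.9%) and 4 of 44 up to 100 kb (2.53% to 21.7%). Both of these pathway ranges include the share of protein-coding genes of that length. Whether length accounts for the share of the signature was not tested. Among intervals listed with a p-value of at most 0.01, 31.8% of the 22 signature genes had one, against 4.53% of protein-coding genes. For the 70 further pathway genes this share was 8.57%. Transcript levels were not measured in these files, so the amount of each RNA and its contact with SF3B1 cannot be told apart, for TEAD1 and CCN1 as well as for the target genes.

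**Figure D3:**
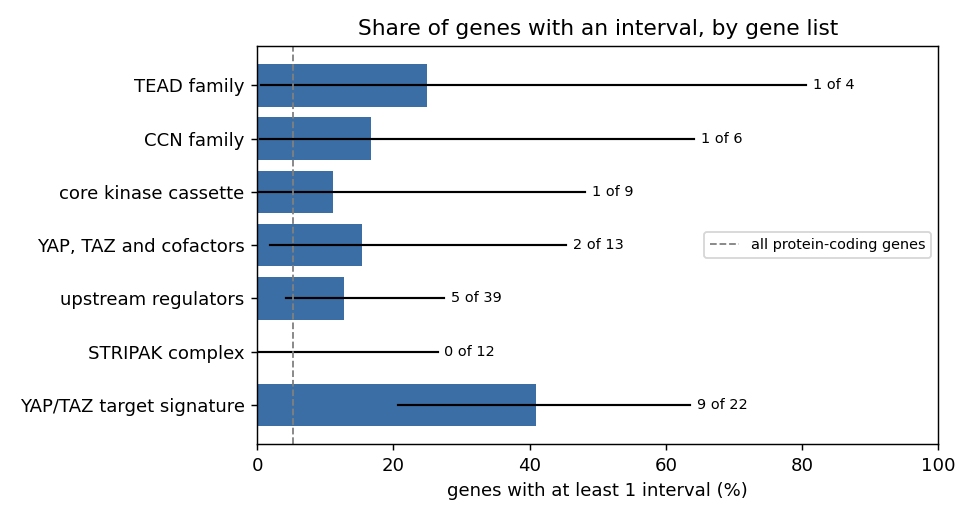
Percentage of genes with at least 1 interval (horizontal axis) in each gene list (vertical axis), with members of the set included; black lines are exact Clopper-Pearson 95% intervals, labels give the counts, and the dashed line is the 5.29% of all protein-coding genes. The target signature reaches 40.9% (9 of 22), the pathway lists lie between 0 and 25.0%, and their intervals are wide because the lists are short. All lists were chosen with earlier results of these data known.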

How the data were processed

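The authors deposited 1 peak list for both replicates together; per the file name, it holds significant peaks called on pooled unique tags with edges set at a given part of the height. The signal of each peak is its height in pooled tags, as deposited, without normalization. Cutadapt 2.3, BWA 0.7.17 and hg38 are named per the submitters' processing notes; the peak caller, its threshold and its annotation are not given in the sources used here. Tag totals of each library were not known. The meaning of the listed expected height and p-value was read from the field's own abbreviations.

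Of 1191 gene numbers in the list, 1190 matched the RefSeq table of GRCh38.p14. Repeated rows for one stretch of a strand were merged, which left 1406 of 1587. Direction along a gene followed the strand of its interval; for 12 of 12 pathway or target genes with an interval and a RefSeq promoter entry, that strand was the gene's. The members and the 7 gene lists were chosen with earlier results of these data known. Named genes were the 9 members, up to 5 further genes per list by tallest peak, and the 3 genes nearest to TEAD1. NAV2, MPRIP, DST, DIP2C, RPL10A, CD44, CAV1, SPARC, MSN and the other markers were named beside them. No set test was run. The assignment was tested on simulated data. Alternatives were the gene numbers as listed, any overlap of 1 nt, every gene holding the midpoint, every row, merging within 50 nt, heights above the median and a p-value of at most 0.01. Tables were handled with pandas 2.3.3 and numpy 2.4.6 under Python 3.11.15, exact limits came from scipy 1.17.1, and plots from matplotlib 3.10.9.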

Additional observations from a re-analysis of the deposited data

How the results depend on the processing

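Counting every row, taking gene numbers as listed, accepting any overlap, counting every gene that holds the midpoint and merging within 50 nt left all 7 results at the values given: 5 intervals in 2 members, 4 of them in TEAD1, a tallest height of 25 tags, a median of 12, and shares of 11.4% and 40.9%. With a p-value of at most 0.01, the number of members with an interval was 1, because CCN1 is listed at 0.0315. With heights above the median, the share of further pathway genes was 1.43%, because 7 of the 8 have peaks of at most 7 tags. The share of signature genes was then 27.3%, and that of all protein-coding genes was 2.43%. No paired analysis was possible because there is 1 group and the deposited list pools its replicates; for the same reason no replicate could be left out. Depth per library was unknown, and peaks of a few tags rest on few reads.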
